A study of Harpegnathos saltator with 18 samples.

Results

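The 72 loci described here are transcribed loci of the ant Harpegnathos saltator whose identifiers start with XLOC and whose mean level was higher in the non-visual brain than in any of 5 other tissues. A locus was taken when it reached 1 RPKM (reads per 1000 bases of gene model per M (mega) reads of the library) in at least 3 of the 18 libraries, and when its mean log2(RPKM + 1) over the 3 libraries of each tissue was highest in non-visual brain. Of the 438 XLOC loci in the deposited table, 369 passed the low-value criterion, and the 72 loci are 19.5% of those. Among the 69 loci below the criterion, 8 had their highest mean in non-visual brain and 6 were listed at 0 in every library. Because the levels in non-visual brain chose the loci, all values of that tissue against the others are given as a description, with no test.

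The study measured polyadenylated RNA in 6 tissues, with 3 libraries each. Non-visual brain, optic lobe, retina, antenna and fat body came from workers, and ovary came from gamergates, which are workers that mate and lay eggs. Caste and tissue therefore cannot be told apart in any comparison with ovary. No genetic change or treatment is named for any group, and neither the age of the ants nor the number pooled per library is stated.

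Optic lobes are the parts of an insect brain that process signals from the compound eyes. Outside them lie, among other centres, the antennal lobes, which receive input on odours, the mushroom bodies, known for learning and memory, and the central complex, known for the control of movement and orientation. The labels do not say which of these centres the non-visual brain samples held. Identifiers of the XLOC form are of the kind that transcript assembly programs such as Cufflinks give to a locus built from reads, whereas the HSALG identifiers of the other rows belong to gene models. Set against a reference table of 14329 genes of this species, 0 of the 20755 row identifiers had a match. The loci therefore carry no gene name, role or position here, and the tissue labels could not be checked against marker genes.

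Library totals recovered from the RPKM steps ran from 2.37 M to 4.73 M reads in antenna and from 8.20 M to 30.1 M in the other tissues. For a locus of 1000 bases, a count of 3 reads corresponded to 1.27 RPKM in the shallowest library (antenna replicate 2) and to 0.0998 RPKM in ovary replicate 2, which had the most reads. Over all 12996 rows tested, 13 of 18 libraries had a mean correlation within their tissue above their highest correlation outside it. Non-visual brain replicate 1 (mean r = 0.850 with its own tissue) came as close to optic lobe replicate 3 (r = 0.852), and optic lobe replicate 3 (mean r = 0.842 with its own tissue) was closer to non-visual brain replicate 2 (r = 0.867). These are the shallowest libraries of their tissues. Antenna replicate 3 was closer to retina replicate 1 (r = 0.726) than to the other antenna libraries (mean r = 0.587), and the mean r of antenna replicates 1 and 2 with their own tissue was 0.616 each, against 0.634 and 0.636 with retina replicate 3. Results that rest on these libraries are given below with and without them.

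The 72 loci formed a set with moderate levels in non-visual brain and, for most, levels nearly as high in the optic lobe. Mean RPKM in non-visual brain ran from 0.773 to 368 with a median of 11.3, and 20 loci averaged at least 20 RPKM while 17 averaged under 5. The margin, which is the mean log2(RPKM + 1) of non-visual brain minus that of the next highest tissue, had a median of 0.34 and a range of 0.00064 to 1.79. It was under 0.5 in 48 loci, under 0.1 in 11 and at least 1 (2-fold) in 5. Those 5 are 6.94% of the 72 loci, against 11.9% of the 1808 rows of any kind that were highest in non-visual brain and 1.65% of all rows tested, most of which could not reach such a margin there. The next tissue was optic lobe for 51 loci, antenna for 7, ovary and fat body for 5 each, and retina for 4.

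**Figure D1:**
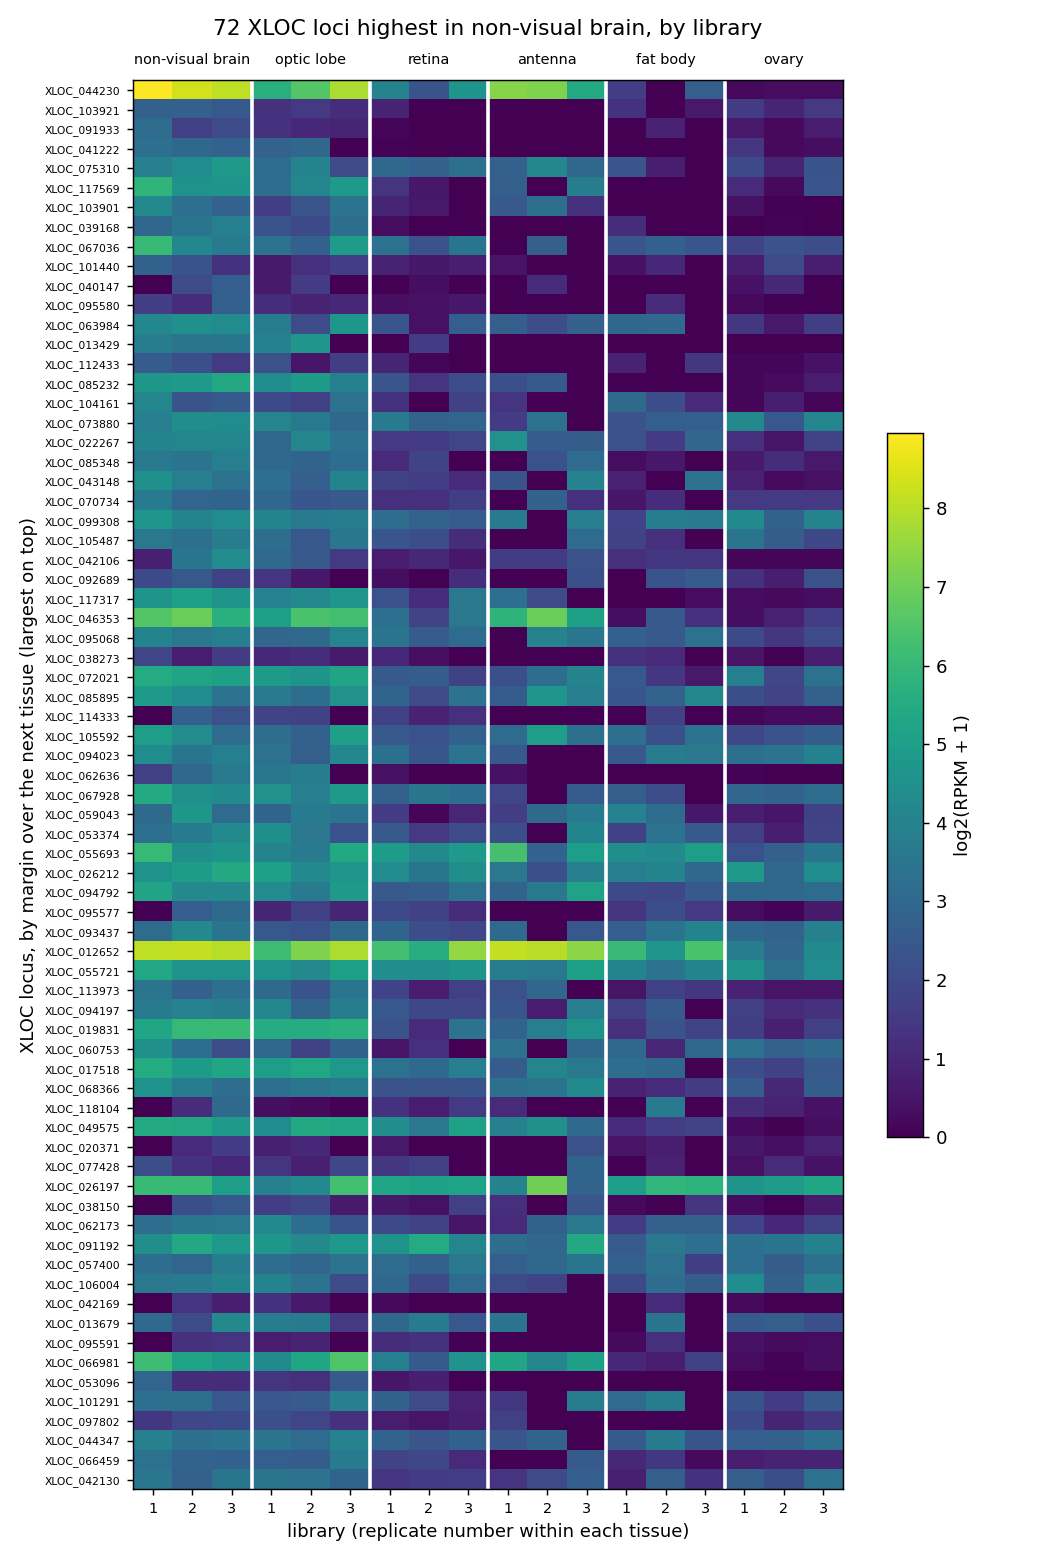
Level of each of the 72 loci (rows, largest margin on top) in each of the 18 libraries (columns, grouped by tissue), as log2(RPKM + 1) in colour. The left block, non-visual brain, and the optic lobe block beside it are brighter than the other 4 tissues for most loci, and dark cells at 0 are most frequent in antenna and fat body.

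Non-visual brain held the highest mean for 72 of 369 XLOC loci (19.5%) and for 1736 of 12627 HSALG rows (13.7%), and over all rows tested the share was 13.9%. Optic lobe held the highest mean for 163 XLOC loci (44.2%), ovary for 58 (15.7%), antenna for 35, retina for 22 and fat body for 19. Of HSALG rows, 30.7% were highest in ovary. These shares are counts over rows and carry no test.

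The median margin of the 72 loci, 0.34, stands beside 0.53 for the 163 XLOC loci highest in optic lobe, 0.71 for the 134 highest outside the brain, 0.31 for the HSALG rows highest in non-visual brain and 0.54 for all rows. Recovered length had a median of 964 bases (285 to 3307) in the 72 loci, against 1280 bases in XLOC loci highest in optic lobe, 1001.5 bases in those highest outside the brain and 715.5 bases of model length in HSALG rows highest in non-visual brain. Of the 72 lengths, 33 (45.8%) were multiples of 3, against 35.3% of all recovered XLOC lengths and 97.4% of HSALG lengths. Lengths of XLOC loci and HSALG rows may therefore not be like measures. The median SD between the 3 non-visual brain libraries was 0.50 on the log2(RPKM + 1) scale in the 72 loci and 0.51 over all rows tested.

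**Figure D2:**
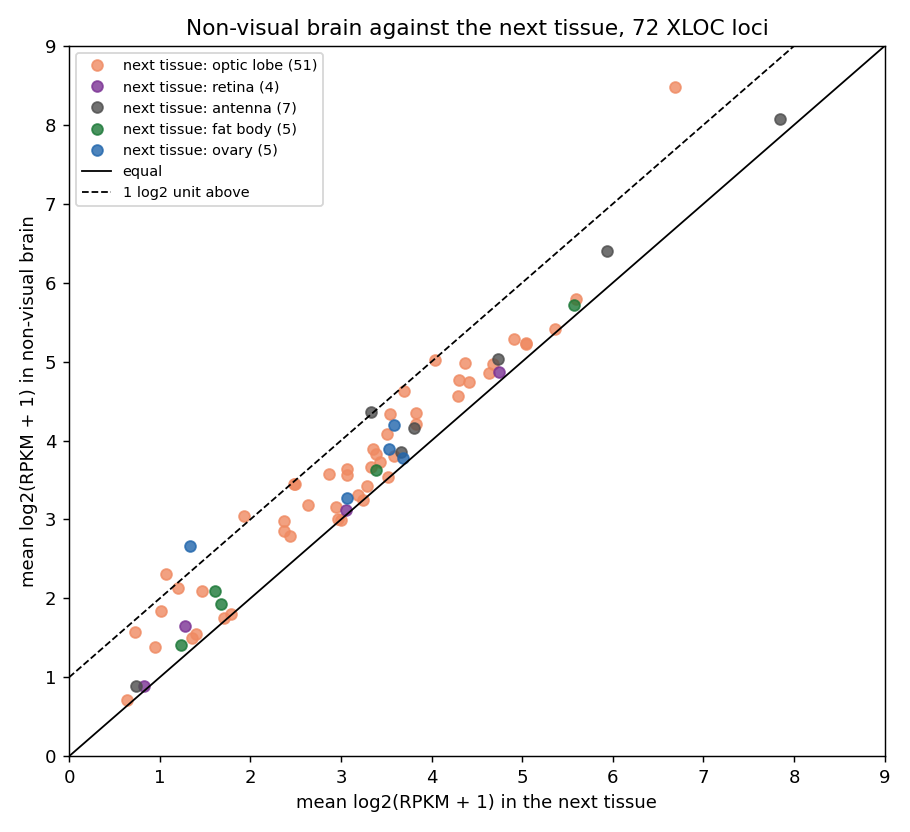
Mean log2(RPKM + 1) in non-visual brain (vertical axis) against that in the next highest tissue (horizontal axis) for the 72 loci, coloured by which tissue is next. All points lie above the line of equality, as the choice of loci requires, and 5 lie above the dashed line at 1 log2 unit.

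Means reached 1 RPKM in all 6 tissues for 34 loci (47.2%), beside 46.1% of the HSALG rows highest in non-visual brain and 49.8% of all rows tested, and 10 loci reached 1 RPKM in every one of the 18 libraries. By tissue, the mean reached 1 RPKM for 71 loci in non-visual brain, 65 in optic lobe, 50 in retina, 53 in antenna, 46 in fat body and 42 in ovary. At the other end, 8 loci reached a mean of 1 RPKM in the 2 brain tissues alone, and 3 in non-visual brain alone. The counts by tissue and for the brain alone were not set against all rows and are given as a description. In all 3 libraries of a tissue, 13 loci were listed at 0 in antenna, 9 in fat body and 2 in ovary. The other loci, 59, 63 and 70 of the 72, had a value above 0 there. Of all 12996 rows tested, 10197, 11208 and 12540 had such a value, so these zeros are not read as a trait of the loci. Antenna had the shallowest libraries, at 2.37 M to 4.73 M reads against 11.3 M to 15.2 M in non-visual brain, so low levels in antenna were not detectable at this depth. The median was 40 reads per locus over the 3 antenna libraries and 540.5 reads over the 3 of non-visual brain. The loci were chosen for high levels in non-visual brain, so this gap does not measure depth alone.

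The locus with the largest margin and the highest level was XLOC_044230, with a recovered length of 618 bases. It had 498, 328 and 277 RPKM in non-visual brain, against 49.0, 92.7 and 234 in optic lobe, 159, 148 and 43.7 in antenna and 15.1, 4.04 and 24.1 in retina. Fat body had 2.09, 0 and 5.52 RPKM and ovary 0.142, 0.215 and 0.22. Every non-visual brain library lay above the other 15 libraries, and optic lobe and antenna overlapped each other. The mean was 368 ± 116 RPKM in non-visual brain, against 125 ± 96.6 in optic lobe, 117 ± 63.6 in antenna and 0.192 ± 0.0438 in ovary (SD, n = 3 each). In bulk tissue, fewer cells of a type and less RNA per cell cannot be told apart, for this locus and the others.

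XLOC_103921 (453 bases) was a low-level locus with the second largest margin, 1.33. Its non-visual brain values of 5.84, 5.67 and 4.58 RPKM stood above 1.41, 1.83 and 1.21 in optic lobe and 2.03, 0.881 and 1.8 in ovary, the next tissue. Antenna was listed at 0 in all 3 libraries. XLOC_091933 (822 bases, margin 1.24) had 7.94, 2.24 and 3.17 RPKM in non-visual brain against 1.42, 1.01 and 0.886 in optic lobe. Both loci had all 3 non-visual brain libraries above the 15 others, as did XLOC_044230 and XLOC_085348; XLOC_085348 is named after its values were seen. That makes 4 of 72 loci (5.56%). Over all rows tested 1.34% had this order, and among the 1808 rows highest in non-visual brain, which alone can have it, 9.62% did.

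In other loci with large margins, single libraries stood out. XLOC_041222 (margin 1.11) had 8.64, 7.07 and 6.13 RPKM in non-visual brain against 6.09, 6.83 and 0 in optic lobe, where the listed 0 is replicate 3. Optic lobe replicates 1 and 2 held 145 and 229 reads of this locus and replicate 3 held 0. XLOC_067036 (margin 0.94) had 66.0, 17.1 and 11.6 RPKM in non-visual brain against 9.42, 5.69 and 30.3 in optic lobe, so the tissues overlapped and replicate 1 was the high one in non-visual brain. XLOC_075310 (margin 1.03), with antenna as the next tissue, had 14.1, 19.1 and 27.4 RPKM in non-visual brain against 5.76, 17.3 and 7.18 in antenna, again with overlap.

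The rest of the 10 largest margins lay between 0.93 and 0.98. XLOC_117569 had 57.3, 22.6 and 23.6 RPKM in non-visual brain against 8.27, 16.2 and 26.9 in optic lobe, and was listed at 0 in every fat body library. XLOC_103901, also at 0 in fat body, had 17.8, 8.61 and 6.12 RPKM in non-visual brain against 2.09, 4.18 and 9.79 in optic lobe. XLOC_039168 had 7.05, 10.3 and 13.5 RPKM in non-visual brain against 3.75, 3.05 and 8.36 in optic lobe and 0 in all antenna libraries. In these 3 loci one optic lobe library, replicate 3 each time, reached into the range of non-visual brain. XLOC_101440 had 5.87, 4.02 and 1.42 RPKM in non-visual brain against 0.579, 1.39 and 2.2 in optic lobe.

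Among the 5 loci with the highest levels, 4 had margins under 0.5. XLOC_012652 (507 bases) had 276, 280 and 253 RPKM in non-visual brain, against 283, 252 and 168 in antenna and 70.0, 148 and 231 in optic lobe. Non-visual brain and antenna overlapped, and their means of 270 ± 14.6 and 234 ± 59.7 RPKM (SD, n = 3 each) differed by less than the spread between antenna libraries. Optic lobe averaged 150 ± 80.7, retina 102 ± 71.2, fat body 57.5 ± 30.1 and ovary 12.5 ± 5.56 RPKM, in descending order, with overlap between optic lobe, retina and fat body.

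XLOC_046353 (530 bases) likewise had antenna as the next tissue, at 93.7, 122 and 51.2 RPKM in non-visual brain against 55.5, 120 and 32.9 in antenna. Optic lobe had 33.4, 83.1 and 75.6 RPKM, and no library of fat body or ovary passed 4.65 RPKM. The 2 brain tissues and antenna overlapped throughout. XLOC_019831 (1275 bases) had 38.9, 64.0 and 65.6 RPKM in non-visual brain against 45.8, 45.8 and 50.1 in optic lobe. XLOC_026197 (528 bases) had 66.8, 64.7 and 31.7 RPKM in non-visual brain against 31.7, 58.8 and 54.0 in fat body, its next tissue, and at least 6.23 RPKM in every library. It was, with XLOC_026212, one of the 2 loci with the highest means in ovary, at 24.0, 29.0 and 38.4 RPKM for XLOC_026197 and 26.8, 6.97 and 19.4 RPKM for XLOC_026212. XLOC_026212 had 23.0, 29.0 and 41.3 RPKM in non-visual brain, which overlapped with its ovary values.

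**Figure D3:**
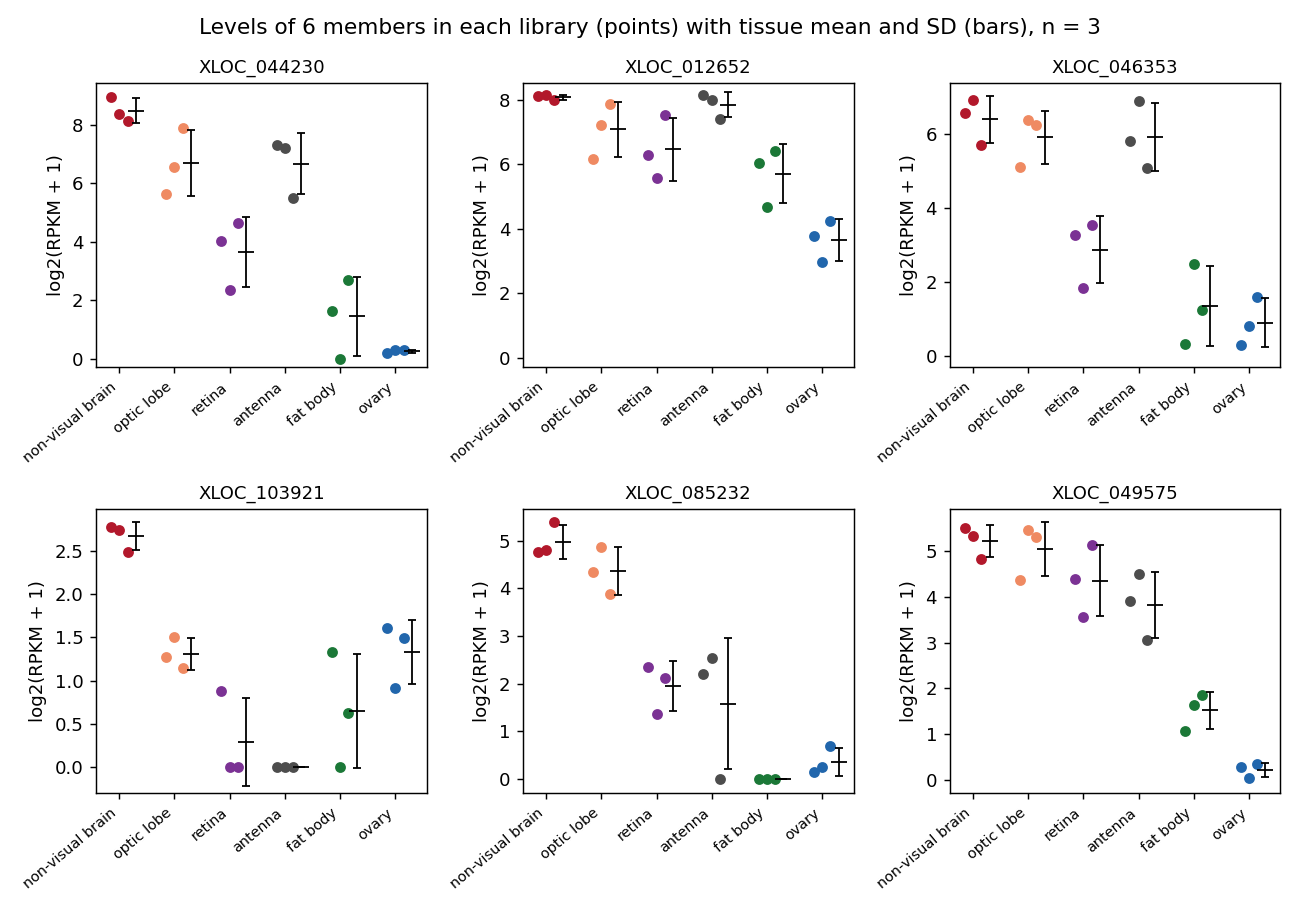
Level of 6 of the 72 loci in each library (points, log2(RPKM + 1)) by tissue, with the mean and SD of the 3 libraries as bars. In XLOC_044230 and XLOC_103921 the non-visual brain points lie above all others, in XLOC_012652 and XLOC_046353 antenna overlaps with non-visual brain, and in XLOC_085232 and XLOC_049575 fat body and ovary are the low tissues.

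For 21 loci the next tissue was not optic lobe, and the examples given for them, as well as XLOC_013429 and XLOC_040147, were chosen after their values were seen. Of the 5 with ovary next, XLOC_073880 had 13.4, 20.4 and 18.8 RPKM in non-visual brain against 17.5, 4.56 and 15.8 in ovary. XLOC_106004 had 11.0, 12.0 and 15.5 RPKM in non-visual brain against 19.3, 5.67 and 14.7 in ovary. Ovary overlapped with non-visual brain in both, unlike in XLOC_103921. Of the 5 with fat body next, XLOC_093437 had 7.97, 17.5 and 10.3 RPKM in non-visual brain against 5.43, 9.74 and 15.5 in fat body. Of the 4 with retina next, XLOC_091192 had 20.8, 41.0 and 26.4 RPKM in non-visual brain against 23.3, 44.8 and 16.1 in retina. The libraries of both tissues were interleaved in these loci as well. Of the 7 with antenna next, XLOC_055693 had 62.7, 20.9 and 24.0 RPKM in non-visual brain against 79.0, 6.12 and 31.8 in antenna, so antenna libraries lay both above and below those of non-visual brain.

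The 8 loci that reached a mean of 1 RPKM in the brain tissues alone had low levels elsewhere, as in XLOC_091933 and XLOC_039168 above. XLOC_013429 (303 bases) had 12.8, 9.99 and 10.2 RPKM in non-visual brain against 14.2, 24.3 and 0 in optic lobe, where the listed 0 is replicate 3. Its mean RPKM was higher in optic lobe (12.84) than in non-visual brain (10.99), as was the case for 7 of the 72 loci. XLOC_013429 was not chosen without optic lobe replicate 3, by the median over libraries or by mean RPKM without a log. It was listed at 0 in every library of antenna, fat body and ovary, and in retina it reached 1.94 RPKM in 1 library. Of the 3 that reached 1 RPKM in non-visual brain alone, XLOC_040147 had 0, 3.17 and 5.36 RPKM in non-visual brain against 0.569, 1.92 and 0 in optic lobe, with both zeros in the libraries that stand apart.

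At the threshold, loci inside and outside had much the same values. XLOC_042130 was inside by 0.00064 with 10.5, 5.69 and 10.1 RPKM in non-visual brain against 9.80, 9.58 and 6.48 in optic lobe. XLOC_066459 was inside by 0.0015 with 9.33, 6.12 and 5.94 RPKM in non-visual brain against 5.40, 5.27 and 11.7 in optic lobe. Just outside, XLOC_100024 had 30.5, 33.5 and 24.8 RPKM in non-visual brain against 36.6, 44.1 and 15.9 in optic lobe, and missed by 0.01. XLOC_054576, which missed by 0.015, had 2.01, 0.885 and 1.87 RPKM in non-visual brain and its highest mean in retina.

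Which loci qualified depended on single libraries of the brain. Of the 72 loci, 57, 61 and 60 were chosen again without non-visual brain replicate 1, 2 and 3 in turn, and 66, 64 and 61 without each optic lobe library in turn, in the order of their numbers. Non-visual brain replicate 1 was the highest of its 3 libraries in 36 of the 72 loci (50.0%), against 26.2% of all rows, and optic lobe replicate 3 was the highest of its 3 in 35 (48.6%), against 33.7% of all rows. In 24 loci both held. The values of both libraries helped to choose the loci but not all rows, so nothing is read from these shares. Non-visual brain replicate 1 was also listed at 0 in 8 loci and optic lobe replicate 3 in 10, of which 6 were the same loci. Leaving out both of these libraries gave 83 loci, of which 58 were among the 72; this alternative was added after seeing the data.

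A library left out of the mean of non-visual brain gives a value that the ranking of tissues did not use. It still counted in the low-value criterion. The means of the other tissues set against it are those that chose the loci. Chosen without non-visual brain replicate 1, 87 loci qualified, and in 37 of them (42.5%) that library lay above the mean of every other tissue, against 40.2% of the 2316 rows of any kind chosen in that way. For replicate 2 it was 44 of 71 loci (62.0%), against 58.3% of 1938 rows, and for replicate 3 it was 40 of 67 (59.7%), against 59.9% of 1800 rows. In all 3 cases the share of loci was within 4 percentage points of the share of rows. Of the 72 loci, 29 were chosen under each of 5 other settings and each of 18 left-out libraries, and all 10 loci with the largest margins were among the 29. The margin comes from the means that the rule ranks, so a large margin makes a loss of rank unlikely beforehand. The last count is therefore not read as support for these loci.

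**Figure D4:**
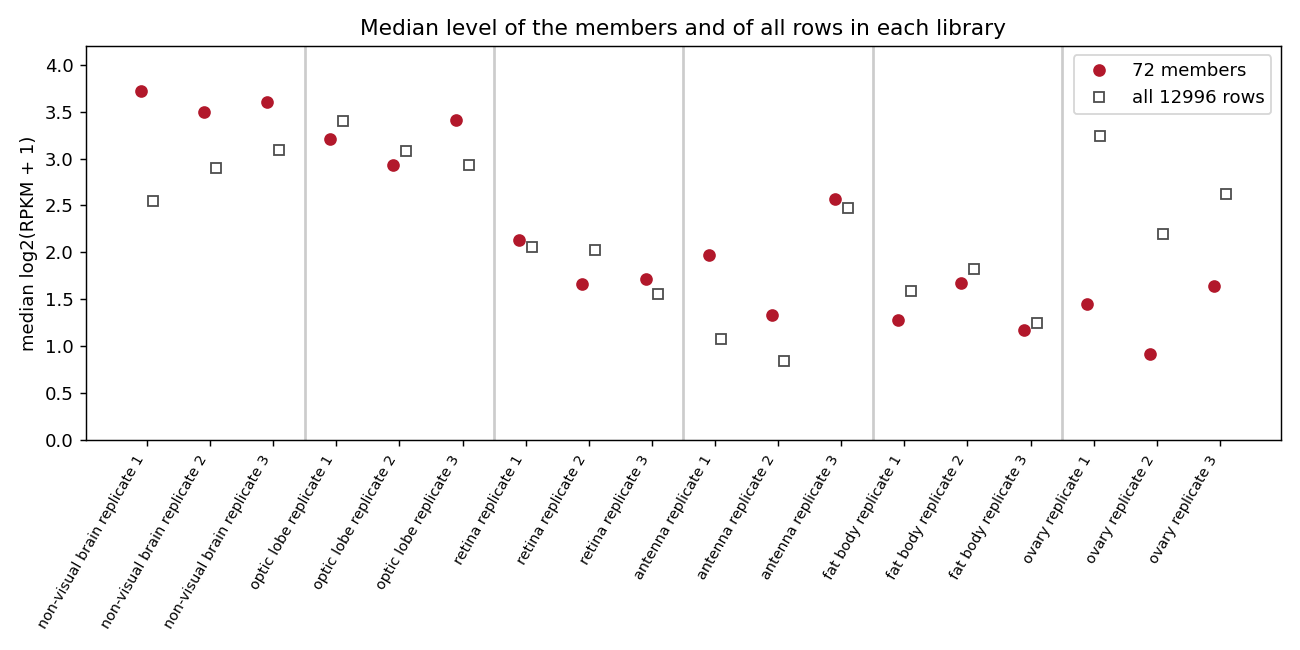
Median log2(RPKM + 1) of the 72 loci (circles) and of all 12996 rows tested (squares) in each library, grouped by tissue. The loci lie above all rows in the 3 non-visual brain and the 3 antenna libraries, within 0.5 of them in optic lobe, retina and fat body libraries, and below them in the 3 ovary libraries.

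Across libraries, the median level of the loci on the log2(RPKM + 1) scale was 3.72, 3.49 and 3.60 in non-visual brain, where all rows had 2.55, 2.90 and 3.09. In antenna it was 1.97, 1.33 and 2.57, also above the 1.08, 0.84 and 2.48 of all rows. In ovary it was 1.45, 0.91 and 1.64, below the 3.24, 2.19 and 2.62 of all rows and near the 1.78, 1.11 and 1.77 of all 369 XLOC loci. In optic lobe the medians of the loci, 3.20, 2.93 and 3.41, lay on both sides of those of all rows, 3.40, 3.08 and 2.93. The loci together took 0.64%, 0.66% and 0.56% of all RPKM in the non-visual brain libraries and 0.32%, 0.45% and 0.45% in the optic lobe libraries.

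The contrasts among the 5 tissues other than non-visual brain were tested with limma on log2(RPKM + 1), and a locus was called at a Benjamini-Hochberg adjusted p under 0.05 over all 12996 rows and a difference of at least 2-fold. The choice of the loci used the levels of these tissues, since it capped each of them at that of non-visual brain. Rows highest in another tissue are not among the loci but stay in the share of all rows. The choice thus bears on each comparison of the loci with all rows, and its part was not tested. Separate animals are not stated for the replicates, and p-values here reflect the variation between libraries alone, part or all of which may be technical.

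In optic lobe against the mean of retina, antenna, fat body and ovary, 35 of 72 loci (48.6%) were higher in optic lobe, where 35.8% of all rows were called higher. By limma 0 loci were lower, also at an unadjusted p under 0.05 (0 loci) and with voom on recovered reads (0 loci), and 5.41% of all rows were lower. Of the HSALG rows highest in non-visual brain, chosen alike, 0 of 1736 were lower as well. The 0 is therefore not read as a trait of the loci. The median difference was 1.14 in the 72 loci and 0.92 over all rows, and 68 of 72 differences were positive. The XLOC loci highest in optic lobe, chosen on that tissue, had 130 of 163 (79.8%) called higher, and the HSALG rows highest in non-visual brain 684 of 1736 (39.4%). Of the XLOC loci highest outside the brain, 12 of 134 (8.96%) were called higher. Rows highest in other tissues count in the 35.8% but cannot be among the 72, so the gap to 48.6% is not read as a trait of the loci. With trimmed-mean scaling the count fell to 15 of 72 and the share of all rows to 15.5%, and without optic lobe replicate 1 the count was 20. The count of 20 without optic lobe replicate 1 is 27.8% of the loci, against 19.7% of all rows in that fit. Leaving out both brain libraries that stand apart gave 26 (36.1%), beside 33.6% of all rows, and without optic lobe replicate 3 alone it was 25 (34.7%), beside 33.0%. The median of the loci then lay 0.10 above that of all rows in both cases, and 0.22 above it with all libraries, so the gap to all rows was smaller without optic lobe replicate 3. Leaving out the 3 antenna libraries gave 37 (51.4%), beside 38.6% of all rows; this setting and the one without both brain libraries were added after seeing the data.

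XLOC_044230 differed most in this contrast, by 3.68 (SE 0.58, limma adjusted p = 8.97e-05), although its optic lobe libraries overlapped with those of antenna. XLOC_085232 (1763 bases) followed with 3.39 (SE 0.48, limma adjusted p = 2.74e-05). It had 26.1, 26.8 and 41.1 RPKM in non-visual brain, and 19.3, 28.2 and 13.7 in optic lobe against 4.11, 1.56 and 3.36 in retina, 3.6, 4.79 and 0 in antenna and 0.0995, 0.189 and 0.618 in ovary. Fat body was listed at 0 in all 3 libraries. All 3 optic lobe libraries of XLOC_085232 lay above every library of the 4 tissues outside the brain. Both loci kept their call in each of the 24 alternative settings run for them.

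In optic lobe against retina, 19 of 72 loci (26.4%) were higher in optic lobe, beside 24.9% of all rows, and the median difference was 1.12, beside 1.02 for all rows. By limma 0 loci were lower (0 at an unadjusted p under 0.05, 0 with voom), and 3.69% of all rows were. Of the HSALG rows highest in non-visual brain, 3 of 1736 (0.17%) were lower. The share of the loci called higher was thus near that of all rows. A pseudocount of 0.1 gave 10 loci higher (13.9%), beside 13.8% of all rows. Trimmed-mean scaling gave 4 (5.56%), where 6.99% of all rows were higher and 7.10% lower. The count was 10 without optic lobe replicate 1, 10 without optic lobe replicate 2, 12 without retina replicate 1, 11 without retina replicate 2 and 10 without retina replicate 3. The share of all rows called higher was lower as well in these fits, between 11.9% (without optic lobe replicate 1) and 18.1% (without retina replicate 2). The median of the loci minus that of all rows was 0.10 with all libraries, -0.07 without retina replicate 2 and -0.10 without optic lobe replicate 3.

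XLOC_117569 had the largest difference, 3.40 (SE 0.81, limma adjusted p = 0.00494), with 8.27, 16.2 and 26.9 RPKM in optic lobe against 1.57, 0.486 and 0 RPKM in retina. XLOC_019831 differed by 3.32 (SE 0.59, limma adjusted p = 0.000518), with 45.8, 45.8 and 50.1 RPKM in optic lobe against 3.9, 1.15 and 9.75 in retina. In both loci every optic lobe library lay above every retina library.

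Retina and fat body differed in few of the loci. By limma 4 of 72 (5.56%) were higher in retina, near the 6.05% of all rows, so the count is not read as a trait of the loci. There were 0 lower (2 at an unadjusted p under 0.05, 0 with voom), beside 4.26% of all rows. Of the HSALG rows highest in non-visual brain, 10 of 1736 (0.58%) were lower. XLOC_049575 (2614 bases) was higher by 2.84 (SE 0.53, limma adjusted p = 0.00115), with 19.9, 10.8 and 34.0 RPKM in retina against 1.09, 2.08 and 2.61 in fat body. It had 44.2, 39.3 and 27.3 RPKM in non-visual brain and at most 0.26 RPKM in ovary. XLOC_066981 (1338 bases) was higher by 2.52 (SE 0.63, limma adjusted p = 0.0123), with 13.5, 4.8 and 23.4 RPKM in retina against 1.02, 0.599 and 2.37 in fat body. The other 2 were XLOC_085232, by 1.94 (limma adjusted p = 0.045), and XLOC_117317, by 2.24 (limma adjusted p = 0.0463), the last named after its values were seen. These calls lay close to the threshold. Of 24 alternative settings, that of XLOC_085232 was lost in 15 and that of XLOC_117317 in 17, the replicate block and no filter among them, with limma adjusted p up to 0.173 and 0.235. The call of XLOC_066981 was lost with voom, with retina and fat body alone in the fit, and without retina replicate 1, retina replicate 3 or fat body replicate 2, with adjusted p up to 0.0777. The count of 4 was 7 without antenna replicate 3, and 1 without retina replicate 1, retina replicate 3 or fat body replicate 2. It was 2 without non-visual brain replicate 2 or 3, optic lobe replicate 1 or 2, or any 1 of the ovary libraries. Over all fits without 1 library, 4.09% to 7.76% of all rows were higher in retina.

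Ovary and fat body differed in 2 of the loci. By limma 1 of 72 loci (1.39%) was higher in ovary, whereas 21.4% of all rows were, and 1 (1.39%) was lower, beside 3.76% of all rows. The median difference was -0.03 in the 72 loci and 0.71 over all rows, with 34 of 72 positive. The HSALG rows highest in non-visual brain had 121 of 1736 (6.97%) higher, 28 (1.61%) lower and a median of 0.23. The XLOC loci highest in optic lobe had 4 of 163 (2.45%) higher. Loci with an ovary level above that of non-visual brain are by construction not among the 72, and the part of this in the counts was not tested.

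XLOC_097802 (1694 bases) was the locus higher in ovary, with 3.06, 0.883 and 1.73 RPKM in ovary against a listed 0 in all 3 fat body libraries. The difference was 1.46 (SE 0.47, limma adjusted p = 0.0276), and the ovary mean was at least 41.7-fold higher than the level of 3 reads over the fat body libraries together. This bound counts reads, many of which came in even numbers, and would be smaller by up to 2-fold if both mates of a fragment were counted. XLOC_012652 was the locus lower in ovary, by -2.04 (SE 0.58, limma adjusted p = 0.0141), with 12.8, 6.75 and 17.9 RPKM in ovary against 65.0, 24.3 and 83.2 in fat body. The groups did not overlap in either locus. The call of XLOC_097802 was lost without fat body replicate 1, 2 or 3, ovary replicate 1 or ovary replicate 3, with adjusted p up to 0.135. That of XLOC_012652 was lost with voom, with ovary and fat body alone in the fit, and without fat body replicate 1, fat body replicate 3 or ovary replicate 2, with adjusted p up to 0.0784. The count of higher loci was 0 without fat body replicate 3, ovary replicate 1 or ovary replicate 3, 2 without antenna replicate 1 or ovary replicate 2, and 3 without antenna replicate 3. The count of lower loci was 0 without fat body replicate 1 or ovary replicate 2, and 3 without non-visual brain replicate 1 or antenna replicate 1. It was 2 without antenna replicate 2, antenna replicate 3 or fat body replicate 3. Over all fits without 1 library, 11.5% to 27.2% of all rows were higher in ovary and 2.79% to 4.76% lower.

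**Figure D5:**
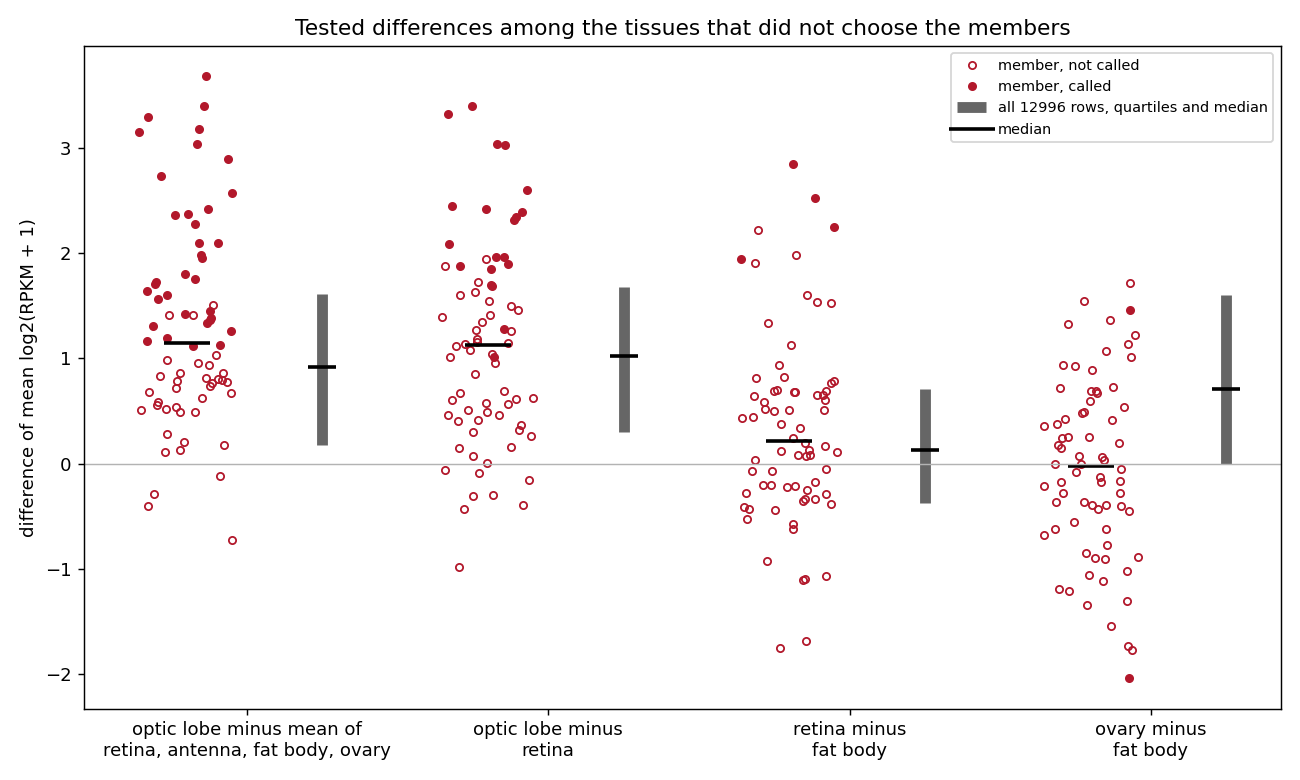
Difference of mean log2(RPKM + 1) in the 4 tested contrasts for each of the 72 loci (points, filled where called by limma), with the quartiles and median of all 12996 rows as bars. The median of the loci is 1.14 and 1.12 in the contrasts with optic lobe, near that of all rows, and -0.03 in ovary minus fat body, below the 0.71 of all rows.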

How the data were processed

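Polyadenylated RNA of 6 tissues was sequenced in unstranded libraries, per the labels' protocols, so reads of overlapping antisense genes cannot be told apart. The authors deposited RPKM values, 1 column per library, with 20755 rows. STAR 2.5.0b and DESeq2 appear in the submitters' processing notes without a stated role. The sources used here do not name the genome build or annotation.

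Gene lengths, library totals and reads were recovered from the steps of the deposited RPKM for 18518 of the 18589 rows above 0 (99.6%), including all 72 loci, and 99.95% of values came out whole within the rounding of the 6 printed digits. Between 46.3% and 67.4% of recovered counts from 1 to 10 were even, so floors cover counting error only.

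The 12996 rows that reached 1 RPKM in 3 or more libraries entered limma 3.58.1 (R 4.3.3, trend, two-sided) on log2(RPKM + 1), with all 18 libraries and 6 tissues in 1 fit and no covariate. A fold change on this scale understates the change of low rows. The recovery of reads and the limma fit were also run on simulated reads. In the limma run all tissues had equal means, except for changed rows in optic lobe, and 1 fixed spread. The tissues here differ far more, so that run does not measure error rates in these data. Loci named are the 10 largest margins, the 5 highest means in non-visual brain, the 2 loci nearest the threshold on each side, the 2 largest called differences per contrast and direction, and the 2 highest means in each other tissue. The loci, lists and contrasts were chosen with earlier results of these data known.

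Alternatives were a pseudocount of 0.1, no filter, trimmed-mean factors, voom on recovered reads, a replicate block, a fit of the compared tissues alone, and each library left out. For single named loci, the fit without a filter and that of the compared tissues alone were added after seeing the data. For the choice of loci they were the first 3 of these, the median over libraries, the mean RPKM without a log and each library left out. Replicate numbers come from the labels, which do not say that they mark shared animals or days.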

Additional observations from a re-analysis of the deposited data

How the results depend on the processing

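The number of loci chosen was 69 with a pseudocount of 0.1 (67 among the 72), 80 with no filter on low values, 63 with trimmed-mean factors (49 among the 72), 74 by the median over libraries (55) and 66 by mean RPKM without a log (60). It ran from 67 to 87 with 1 library left out, and was 82 without the 3 antenna libraries, added after seeing the data. In optic lobe minus the mean of the 4 tissues outside the brain, trimmed-mean factors gave 15 loci higher in place of 35 (20.8%, beside 15.5% of all rows). Leaving out 1 library gave 20 to 39 higher and 0 to 0 lower, beside 19.7% to 43.4% of all rows higher. In optic lobe minus retina, 19 became 4 with trimmed-mean factors (5.56%, beside 6.99% of all rows) and 10 with a pseudocount of 0.1 (13.9%, beside 13.8%). Leaving out 1 library gave 10 to 23 higher and 0 to 0 lower, beside 11.9% to 32.0% of all rows higher. Trimmed-mean factors shifted the median of all rows by -0.64 and -0.87 in these contrasts, by 0.04 in retina minus fat body and by -0.49 in ovary minus fat body. Relative to all rows, the median of the loci was 0.22 and 0.10 in the contrasts with optic lobe and -0.74 in ovary minus fat body, and 0.22, 0.13 and -0.67 with those factors. In retina minus fat body, 4 became 2 (2.78%) with no filter, with the replicate block and with the compared tissues alone. Of all rows, 3.73%, 5.47% and 5.53% were higher in these fits. Leaving out 1 library gave 1 to 7 higher and 0 to 1 lower, beside 4.09% to 7.76% of all rows higher and 2.62% to 5.39% lower. In ovary minus fat body, 1 higher became 4 with voom (5.56%, beside 22.1% of all rows). There 1 lower became 5 with trimmed-mean factors (6.94%, beside 7.44% of all rows) and 2 with voom (2.78%, beside 4.59%). It became 3 with a pseudocount of 0.1 (4.17%, beside 3.22%) and 4 with the compared tissues alone (5.56%, beside 4.22%). Leaving out 1 library gave 0 to 3 in each direction, beside 11.5% to 27.2% of all rows higher and 2.79% to 4.76% lower. Apart from these shifts and the smaller fits, the cause was not tested.

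Same-numbered libraries were not more alike than others in their deviations from the tissue means. Mean r was -0.0009 over the 45 same-numbered pairs and 0.0012 over the other pairs. Of the 45, 9 had r over 0.1, and all 45 ran from -0.35 to 0.33. With 3 libraries per tissue, this cannot exclude shared animals or days. With the replicate block the contrasts gave 31, 17, 2 and 1 loci higher in the order above, and 1 lower in ovary minus fat body. Depth limits antenna most, where 3 reads at 1000 bases were worth up to 1.27 RPKM.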

Other observations

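Among rows at 5 RPKM or more in both other libraries of the tissue, optic lobe replicate 3 was listed at 0 in 3 of 43 of the XLOC loci highest in non-visual brain (6.98%), against 86 of 7703 of all rows (1.12%). Fat body replicate 3 was listed at 0 in 3 of 11 of these loci, against 3.44% of all rows. In non-visual brain replicate 1 it was 1 of 51 loci, against 187 of 6882 of all rows (2.72%). The choice of loci bears on these counts, since a 0 outside non-visual brain helps a locus to qualify and a 0 in non-visual brain hinders it, so nothing is read from them.

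Loci chosen here after their values were seen show how differently the 72 were spread. XLOC_057400 had 8.3, 6.55 and 12.7 RPKM in non-visual brain and between 2.16 and 11.1 RPKM in the other 15 libraries. XLOC_118104 had 0, 1.23 and 7.52 RPKM in non-visual brain against 0, 12.1 and 0 in fat body, so single libraries set both means.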
